A study of Mus musculus with 24 samples.

Results

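Mast cell proteases and markers were followed in the pineal gland as 7 genes, namely Tpsb2, Cma1, Mcpt4, Cpa3, Tpsab1, Ms4a2 and Kit. The genes were taken by name from the gene symbols of the array, with earlier results of these data known. They were read by 10 of the 45101 probe sets and are 7 of the 18193 genes with a probe set of a single symbol. The series asked what loss of Neurod1, a basic helix-loop-helix transcription factor of photoreceptors and pinealocytes, changes in the pineal gland and retina by day and by night. RNA was hybridised to Affymetrix Mouse 430 2.0 arrays. The groups compared were cKO pineal gland at ZT6 (day), control pineal gland at ZT6, cKO pineal gland at ZT20 (night, collected in dim red light) and control pineal gland at ZT20, with the same 4 groups of retina for reference. All mice were C57BL/6J, of both sexes, 2 months old, and had both Neurod1 alleles floxed. The cKO mice also carried a Crx-Cre transgene (Crx-Cre+/-) and the control mice did not (Crx-Cre-/-), and no mice with Cre and unfloxed alleles were analysed here. Each group had 3 arrays, and each array a pool of 6 glands or retinas. The labels number the arrays of a group as biological replicates and do not say whether pools were collected separately. The p-values therefore rest on the spread between pools, which in the pineal fit is largely pooled across genes.

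Mast cells are tissue-resident cells of the haematopoietic lineage, found in connective tissue and in the meninges, and they survive and mature through Kit, the receptor for stem cell factor. Their granules hold serine proteases (tryptases and chymases) and carboxypeptidase A3, bound to heparin or other proteoglycans. They release these granules when IgE bound to the high-affinity receptor, of which Ms4a2 encodes the beta chain, is crosslinked. The Crx promoter drives Cre in photoreceptors and pinealocytes. In RNA of whole glands, fewer cells of a type and less RNA per cell cannot be told apart.

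Of the 7 genes, 4 encode the granule proteases with signals above the middle of the arrays in the pineal gland: Tpsb2 is a tryptase (mouse mast cell protease 6), Cma1 and Mcpt4 are chymases (mouse mast cell proteases 5 and 4), and Cpa3 is the carboxypeptidase. Tpsab1 is a further tryptase gene (mouse mast cell protease 7), which RefSeq lists as a transcribed pseudogene in this reference strain. On GRCm38.p6, Tpsb2 lies at chr17:25366308-25368096 and Tpsab1 beside it at chr17:25343245-25345562. Cma1 lies at chr14:55941451-55944675 and Mcpt4 at chr14:56059744-56062310, and Cpa3 at chr3:20215616-20242209. Ms4a2 lies at chr19:11615517-11623790 and Kit at chr5:75574987-75656722. Tpsb2 and Tpsab1 are closely related tryptase genes, and how far their probe sets read each other's RNA was not tested.

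Promoters are shown for the 3 of these 4 proteases that have an entry in the RefSeq table of GRCm38.p6, because their signals moved together. Each is the 250 bases before the start used in that table, which for Cpa3 lies within the annotated gene span given above, 5' to 3' on the gene's strand, which is the minus strand for all 3. Capitals mark the letters GATA after an A or a T and before an A or a G, read on either strand, which is the motif of GATA factors, which include Gata1 and Gata2 of mast cells. The Cma1 window is chr14:55944676-55944925, the Mcpt4 window chr14:56062311-56062560 and the Cpa3 window chr3:20242182-20242431.
Cma1: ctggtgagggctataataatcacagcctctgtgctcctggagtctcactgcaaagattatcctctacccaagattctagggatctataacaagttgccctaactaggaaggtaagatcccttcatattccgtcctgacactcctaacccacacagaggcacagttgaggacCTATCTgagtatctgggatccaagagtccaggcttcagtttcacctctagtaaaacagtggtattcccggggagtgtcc
Mcpt4: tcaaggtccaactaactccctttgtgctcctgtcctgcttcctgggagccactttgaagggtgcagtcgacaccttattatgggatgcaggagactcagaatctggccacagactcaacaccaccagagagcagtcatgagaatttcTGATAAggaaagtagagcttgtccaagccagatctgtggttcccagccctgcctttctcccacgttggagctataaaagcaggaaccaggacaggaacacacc
Cpa3: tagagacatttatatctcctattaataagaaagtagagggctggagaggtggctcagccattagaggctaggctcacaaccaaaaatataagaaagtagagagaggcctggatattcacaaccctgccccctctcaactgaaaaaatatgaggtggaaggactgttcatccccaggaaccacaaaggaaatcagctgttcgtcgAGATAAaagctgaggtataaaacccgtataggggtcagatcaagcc
Each window holds 1 such match, which ends 74 bases before the table's start in Cma1, 98 in Mcpt4 and 41 in Cpa3. Of 27025 promoters of this length in the table, 27.1% hold at least 1. The Ms4a2 window holds 3 matches and the Kit window 0. The letters TATAAA on the gene's strand, in 8.10% of all promoters, were found in the Mcpt4 and Cpa3 windows and not in that of Cma1. These matches are a description of letters and do not show binding.

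Neurod1 was checked first. Its signal was 83.5, 29.1 and 30.9 units in the cKO pools at ZT6, against 4646.7, 5268.0 and 5008.4 in the control pools. At ZT20 it was 22.5, 1896.7 and 960.0 in the cKO pools, against 3155.9, 4322.6 and 3387.2 in the control pools. Thus cKO pineal pools 2 and 3 at ZT20 kept a Neurod1 signal well above that of the other cKO pineal pools. In the retina, cKO pools 2 and 3 at ZT20 had 3595.4 and 3582.2, and the other cKO pools 293.2 to 774.1. Control retinas had 5701.4 to 7616.9. No fit left out both of these cKO retina pools. Array medians of the pineal gland ran from 107.1 to 131.0 in cKO pools and from 130.0 to 158.8 in control pools, and no common scaling was found in the values. The log2 ratio of 3' to 5' Actb control probe sets at ZT20 was 1.34 to 1.495 in cKO pools and 1.07 to 1.30 in control pools. The rod gene Gnat1 was at 2233.7 in cKO pool 3 and at 1266.5 and 3829.6 in control pools 2 and 3 at ZT6, against 72.6 to 114.9 in the other ZT6 pools. Results are therefore also given below without some of these pools.

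All 4 granule proteases were lower in cKO than in control pineal glands by day and by night, at 40.9% to 47.2% of the control mean. Tpsb2, whose lead probe set is 1422180_a_at, had signals of 220.5, 276.2 and 187.3 in cKO pools at ZT6, against 423.6, 552.2 and 473.1 in control pools. At ZT20 it had 191.5, 229.3 and 319.7 in cKO pools, against 442.6, 728.9 and 639.3 in control pools. Every cKO pool of this tryptase lay below every control pool. Cma1 (1449456_a_at), the mouse alpha-chymase, had 253.6, 326.0 and 205.9 in cKO pools at ZT6, against 575.2, 520.1 and 568.2 in control pools. At ZT20 Cma1 had 179.1, 257.1 and 410.7 in cKO pools, against 442.6, 955.2 and 598.2 in control pools. The groups again did not overlap, although cKO pool 3 and control pool 1 lay close together at ZT20.

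The other chymase and the carboxypeptidase had the same pattern. Mcpt4 (1425967_a_at) had 239.5, 293.0 and 221.7 in cKO pools at ZT6, against 446.8, 521.0 and 670.6 in control pools. At ZT20 Mcpt4 had 175.5, 205.4 and 387.9 in cKO pools, against 420.0, 830.0 and 464.1 in control pools. The highest of these cKO values lay just under the lowest control value. Cpa3 (1448730_at), the exopeptidase stored beside the chymases, had 163.3, 227.8 and 132.9 in cKO pools at ZT6, against 402.2, 398.1 and 356.6 in control pools. At ZT20 Cpa3 had 166.9, 162.3 and 241.0 in cKO pools, against 300.8, 562.9 and 393.5 in control pools. Over both times, all 6 cKO pools lay below all 6 control pools for each of the 4 proteases, as they did for 0.905% of the 11936 genes tested in the pineal gland. By day alone, 8.21% of genes had all cKO pools below all control pools at ZT6, and by night alone 835 of the 11936 did at ZT20.

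**Figure D1:**
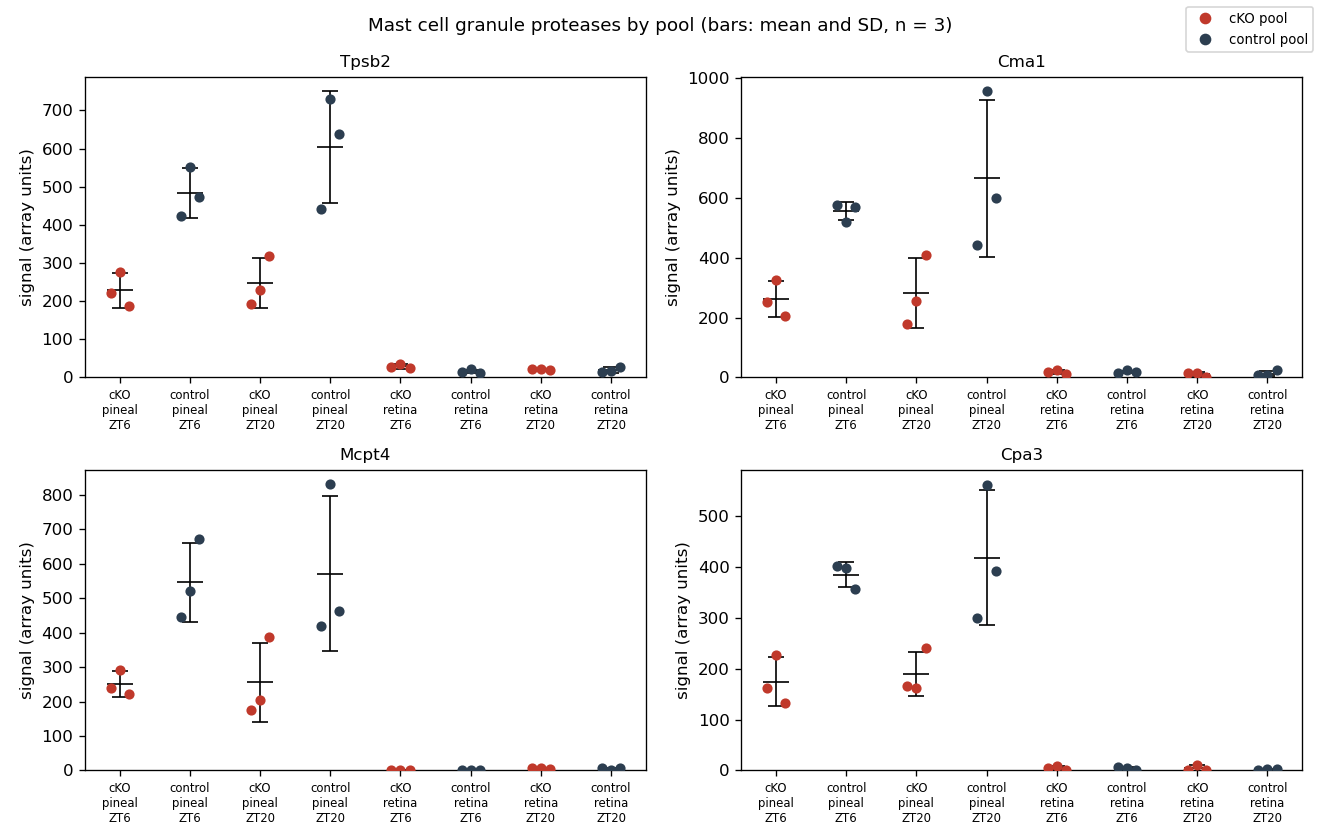
Signal (linear array units) of Tpsb2, Cma1, Mcpt4 and Cpa3 in every pool, with cKO pools in red and control pools in dark blue, pineal gland on the left and retina on the right of each panel. Points are pools and bars the mean and SD of 3 pools; all 6 cKO pineal pools lie below all 6 control pineal pools for each gene, and the retina pools lie near 0.

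As group means, Tpsb2 was 228 ± 44.9 in cKO and 483 ± 64.9 in control glands at ZT6 (SD, n = 3 each). At ZT20 Tpsb2 was 247 ± 65.9 in cKO and 604 ± 146 in control glands (SD, n = 3 each). These levels are 47.2% and 40.9% of the control mean by day and by night. Cma1 stood at 47.2% and 42.4%, Mcpt4 at 46.0% and 44.9%, and Cpa3 at 45.3% and 45.4%. The carboxypeptidase and the chymase Mcpt4 thus stood at nearly the same share of control by day and by night.

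By limma's moderated test on log2(signal + 16), adjusted over all genes, each of the 4 proteases fell at ZT6, with differences of cKO minus control of -1.04 ± 0.21 for Tpsb2, -1.06 ± 0.22 for Cma1, -1.06 ± 0.22 for Mcpt4 and -1.10 ± 0.22 for Cpa3 (SE). Their adjusted p-values from limma were 5.15e-04, 5.15e-04, 5.79e-04 and 4.23e-04, and 1.20% of all genes tested were called lower. At ZT20 the differences were -1.24 ± 0.21 for Tpsb2, -1.20 ± 0.22 for Cma1, -1.12 ± 0.22 for Mcpt4 and -1.05 ± 0.22 for Cpa3 (SE). The adjusted p-values from limma there were 1.49e-04, 2.99e-04, 9.78e-04 and 3.20e-03, and 1.01% of all genes were called lower. Averaged over both times, Tpsb2 fell by 1.14 ± 0.15, Cma1 by 1.13 ± 0.15, Mcpt4 by 1.09 ± 0.15 and Cpa3 by 1.08 ± 0.16 on the log2 scale (SE), with limma adjusted p-values of 5.67e-09, 1.53e-08, 5.60e-08 and 1.60e-07. In that comparison 2.84% of all genes were called lower. The median difference of all genes tested was 0.03 at ZT6, -0.15 at ZT20 and -0.06 over both times.

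The calls at a single time depended on the processing, and the mean over both times did not in any setting run. At ZT20, 0 of the 4 proteases passed after quantile normalisation or centring on array medians, and only Tpsb2 passed after scaling to a common trimmed mean, although all 4 differences stayed negative. Without control pool 2 at ZT20, which was the highest pool for all 4 proteases, only Tpsb2 passed at ZT20, and the adjusted p from limma was 0.091 for Cma1, 0.193 for Mcpt4 and 0.227 for Cpa3. At ZT6, 0 of the 4 passed without control pool 3 and cKO pool 3, chosen after the data were seen as the pools with the highest Gnat1 signal in each genotype, with differences from -0.99 for Cpa3 to -0.83 for Mcpt4. Without cKO pools 2 and 3 at ZT20, which kept Neurod1 signal, the ZT20 differences were -1.55 for Tpsb2, -1.73 for Cma1, -1.55 for Mcpt4 and -1.21 for Cpa3. The median difference of all genes also moved, to -0.35 from -0.15 with all pools. The cKO pool left had the lowest array median of the pineal arrays, 107.1. How much of the larger differences came from that shift was not tested. The 1 cKO pool left in that fit is assumed to vary like the other groups.

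**Figure D2:**
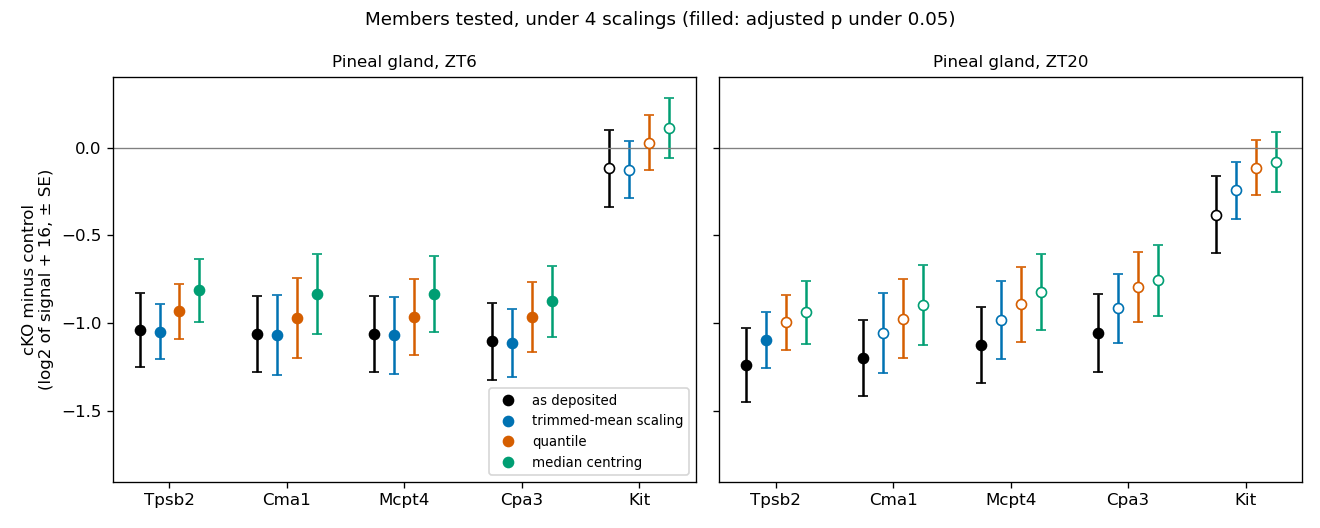
Difference of cKO minus control in log2(signal + 16), with SE bars, for the 5 genes tested, at ZT6 (left) and ZT20 (right) under 4 scalings of the arrays. Filled points passed an adjusted p of 0.05; the 4 proteases stay below 0 under every scaling shown and lose most calls at ZT20, and Kit lies on either side of 0 at ZT6.

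No difference between day and night was called for these genes. ZT20 minus ZT6 in cKO glands was 0.09 for Tpsb2, 0.05 for Cma1, -0.04 for Mcpt4 and 0.12 for Cpa3, and none passed, where 11.5% of all genes were called in either direction. In control glands it was 0.29 ± 0.21 for Tpsb2, 0.19 ± 0.22 for Cma1, 0.02 ± 0.22 for Mcpt4 and 0.07 ± 0.22 for Cpa3 (SE), and none passed, where 8.54% of all genes were called. The genotype effect at ZT20 minus that at ZT6 was -0.20 for Tpsb2, with a 95% interval of -0.79 to 0.39, -0.14 for Cma1, -0.06 for Mcpt4 and 0.05 for Cpa3. None of these passed, where 0.360% of all genes were called.

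The 4 proteases also moved together from pool to pool. Over the 12 pineal arrays their log2 values correlated pairwise at r = 0.935 to 0.970, and their deviations from the group means at r = 0.777 to 0.902, where the 4 values of a pool share 1 array and 1 RNA preparation. The mean log2 value of the 4 was farthest above its group mean in cKO pool 3 at ZT20, by 0.49, and in control pool 2 at ZT20, by 0.48. It was farthest below in control pool 1 at ZT20, at -0.42, and in cKO pool 1 at ZT20, at -0.36. The array medians of these pools were 129.3 and 156.4 for the high pools and 132.3 and 107.1 for the low ones, so within each ZT20 group the pool with the highest protease mean had the highest array median. Control pool 3 at ZT6 was also the highest of its group in both. In cKO glands at ZT6, pool 2 had the highest protease mean and the lowest array median, 115.5. The part of the array median in this spread was not tested.

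Kit, the stem cell factor receptor, was not called in the pineal gland. Its lead probe set 1452514_a_at had 278.8, 260.7 and 280.2 in cKO pools at ZT6, against 226.4, 307.4 and 378.7 in control pools. At ZT20 Kit had 159.1, 219.4 and 258.8 in cKO pools, against 255.0, 346.1 and 239.8 in control pools. The groups overlapped at both times. The difference averaged over both times was -0.25 ± 0.16 (SE), with a 95% interval of -0.56 to 0.06 and a limma adjusted p of 0.603, and under centring on array medians it was 0.01. Without cKO pools 2 and 3 at ZT20, which kept Neurod1 signal, the Kit difference was -0.74 at ZT20, against -0.38 with all pools. Over both times it was -0.43 without these pools. The median difference of all genes without them was -0.35 at ZT20 and -0.16 over both times. The second Kit probe set, 1415900_a_at, had 33.3 to 79.3 in cKO pools and 41.1 to 85.0 in control pools over both times, and overlapped as well. Kit is also found in cell types other than mast cells, among them neurons and melanocytes.

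Tpsab1 and Ms4a2 were dim: no array put either above its median, so neither entered the fit across genes. Tpsab1 (1426175_a_at) had 13.4, 4.1 and 3.3 in cKO pools at ZT6, against 22.4, 23.9 and 40.7 in control pools. At ZT20 Tpsab1 had 5.0, 1.5 and 13.1 in cKO pools, against 8.1, 13.9 and 31.5 in control pools. The groups of this gene did not overlap by day and overlapped by night. Ms4a2 (1443264_at) had 24.1, 13.1 and 14.3 in cKO pools at ZT6, against 34.0, 49.0 and 31.2 in control pools. At ZT20 Ms4a2 had 17.9, 18.5 and 23.2 in cKO pools, against 22.3, 43.2 and 30.5 in control pools. The lead probe set of this IgE receptor chain thus also separated by day and overlapped by night. At ZT6, 8.21% of the genes tested had all cKO pools below all control pools, a share that leaves out genes this dim. With no filter on low values, the mean difference over both times was -0.77 ± 0.18 for Tpsab1 and -0.55 ± 0.15 for Ms4a2 (SE), with limma adjusted p-values of 0.048 and 0.089. The second Tpsb2 probe set, 1451802_at, had 6.9 to 12.1 in cKO pools and 16.9 to 37.1 in control pools at ZT6, and 3.5 to 15.6 in cKO pools and 12.6 to 47.4 in control pools at ZT20. The second Ms4a2 probe set, 1421475_at, stayed between 1.8 and 15.3 in cKO pools and between 6.8 and 19.8 in control pools over both times. It overlapped at ZT6 too, with a highest cKO value of 10.5 and a lowest control value of 9.9.

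**Figure D3:**
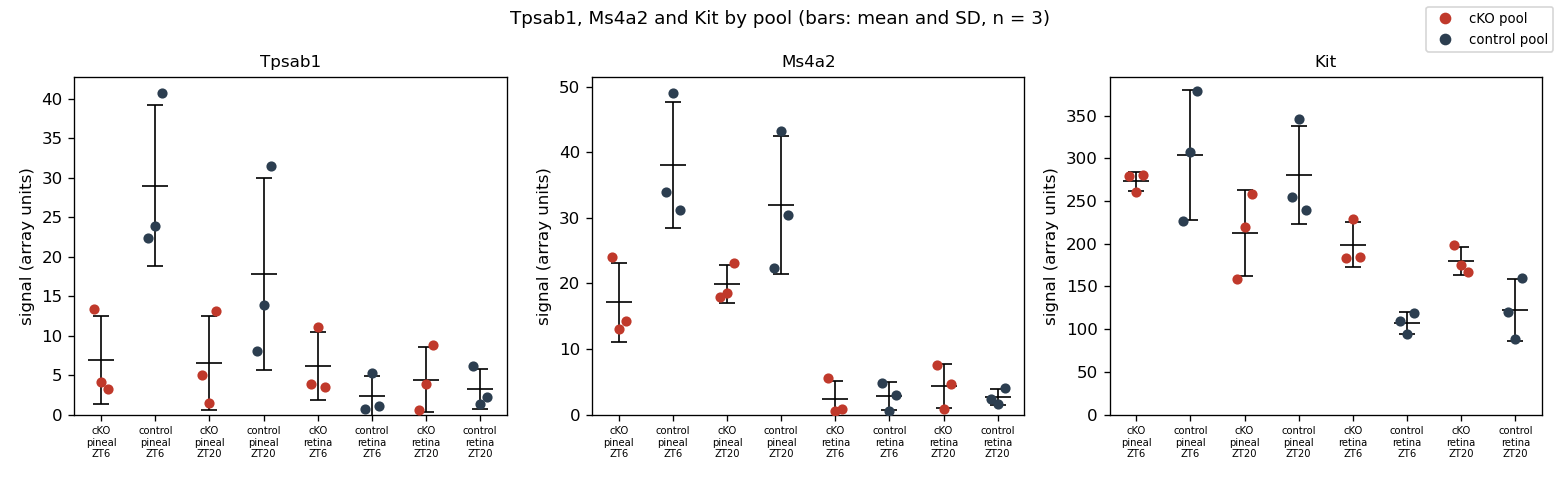
Signal (linear array units) of Tpsab1, Ms4a2 and Kit (lead probe sets) in every pool, cKO in red and control in dark blue, pineal gland on the left and retina on the right; points are pools and bars the mean and SD of 3 pools. Tpsab1 and Ms4a2 stay below 50 units everywhere, and the mean of Kit is lower in both control retina groups than in every other group.

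In the retina the proteases were near the bottom of the scale in both genotypes. Tpsb2 had 20.5 to 36.2 in cKO retinas and 12.3 to 27.9 in control retinas, and Cma1 3.3 to 25.7 in cKO retinas and 7.4 to 23.9 in control retinas. Mcpt4 had 0.5 to 8.6 in cKO retinas and 0.3 to 6.2 in control retinas, and Cpa3 0.5 to 10.9 in cKO retinas and 0.2 to 6.3 in control retinas. All lay below the median of their array on all 12 retina arrays, so none was tested for genotype in the retina. At ZT6 the Tpsb2 signal was 25.5 to 36.2 in cKO retinas and 12.3 to 21.3 in control retinas, without overlap, where 36.5% of the genes tested in the retina had all cKO pools above all control pools. At ZT20 Tpsb2 overlapped, at 20.5 to 22.9 in cKO retinas and 14.1 to 27.9 in control retinas. Control retina minus control pineal gland was -1.23 ± 0.16 for Kit on the log2 scale (SE), which limma called lower, as it did 51.3% of all genes tested. The proteases passed the filter on low values through the pineal arrays alone and had to differ, so their differences of -4.05 for Tpsb2, -4.27 for Cma1, -4.92 for Mcpt4 and -4.45 for Cpa3 are given as a description. The sizes for the proteases depend on the amount added before taking logs: for Mcpt4 they ran from -7.62 to -3.19 over the alternatives. Tpsab1 and Ms4a2 were no brighter, at 0.6 to 11.1 in cKO retinas and 0.6 to 6.1 in control retinas, so that of the 7 genes Kit alone passed the array median on any retina array.

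Kit, the only one of the 7 genes tested for genotype in the retina, rose there in cKO mice. It had 183.9, 229.2 and 184.1 in cKO retinas at ZT6, against 109.3, 93.8 and 119.0 in control retinas. At ZT20 it had 198.7, 174.8 and 166.5 in cKO retinas, against 119.9, 88.1 and 160.3 in control retinas. In array units all 6 cKO pools lay above all 6 control pools, as they did for 9.80% of genes tested in the retina. Ranked within its own array, Kit did overlap. In cKO pool 3 at ZT20, 50.0% of probe sets lay below it, against 51.3% and 52.2% in control pool 3 at ZT6 and ZT20. The mean difference was 0.66 ± 0.17 (SE), with a limma adjusted p of 6.84e-03, where 27.9% of all genes were called higher and the median difference of all genes was 0.20. Over 10 alternatives it ran from 0.40 to 0.73 and stayed called, with limma adjusted p-values up to 0.0368. The second Kit probe set also had all 6 cKO pools (30.8 to 50.3) above all 6 control pools (17.9 to 28.1). By group mean, Kit was highest in control pineal gland at ZT6 (304 ± 76.2), then at ZT20 (280.3 ± 57.5), then in cKO pineal gland at ZT6 (273 ± 10.9) and ZT20 (212 ± 50.2), cKO retina at ZT6 (199 ± 26.1) and ZT20 (180.0 ± 16.7), and control retina at ZT20 (123 ± 36.2) and ZT6 (107 ± 12.7; SD, n = 3 each). Neighbours in that order lay within their summed SDs, apart from cKO retina at ZT20 against control retina at ZT20.

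Of 22 other mast cell genes tested, 1 was called lower over both times and 0 at ZT6 or at ZT20, shares near those of all genes (2.84%, 1.20% and 1.01%). The 22 include Tph1, also on the pinealocyte list below, at 11554.1 in control glands at ZT6, and Mitf, at 9023.9. How much of the signal of these 22 genes came from mast cells was not tested. Of 7 tested genes of the IgE receptor and its signalling, 0 passed at ZT6, at ZT20 or over both times, and their median difference over both times was -0.23, against -0.06 for all genes. Fcer1g, the receptor's gamma chain that other leukocytes share, averaged 1315.6 in cKO and 1606.2 in control glands at ZT6, and Fyn, a kinase of the same pathway, 2348.9 in cKO and 2279.8 in control glands. Of 8 tested genes of mediator synthesis and storage, 0 passed in any of the 3 comparisons, with a median of -0.23 over both times. Srgn, the serglycin core protein of granule proteoglycans, averaged 2697.0 in cKO and 3233.5 in control glands at ZT6. Of 7 tested receptors and transcription factors, Csf2rb alone passed, and only over both times, at -0.53 ± 0.15 (SE) with a limma adjusted p of 0.026. Csf2rb is the shared beta chain of the IL-3, IL-5 and GM-CSF receptors. Gata2, a transcription factor of mast cells and other lineages, averaged 3668.1 in cKO and 2977.4 in control glands at ZT6, and its difference over both times was 0.12 ± 0.10 (SE). None of the 6 other mast cell protease genes on the array was bright enough to test. Among the genes of these lists too dim to test, Mrgprb1 averaged 10.9 in cKO and 55.5 in control glands at ZT6. Cd200r3 averaged 5.3 in cKO and 20.4 in control glands at ZT6, and Fcer1a 29.7 and 40.0. All 3 were also lower in cKO at ZT20. Gzmb was higher in cKO at both times, Mcpt2 and Hdc at ZT6, and Adora3 and Gata1 at ZT20. The remaining dim genes were lower at both times.

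**Figure D4:**
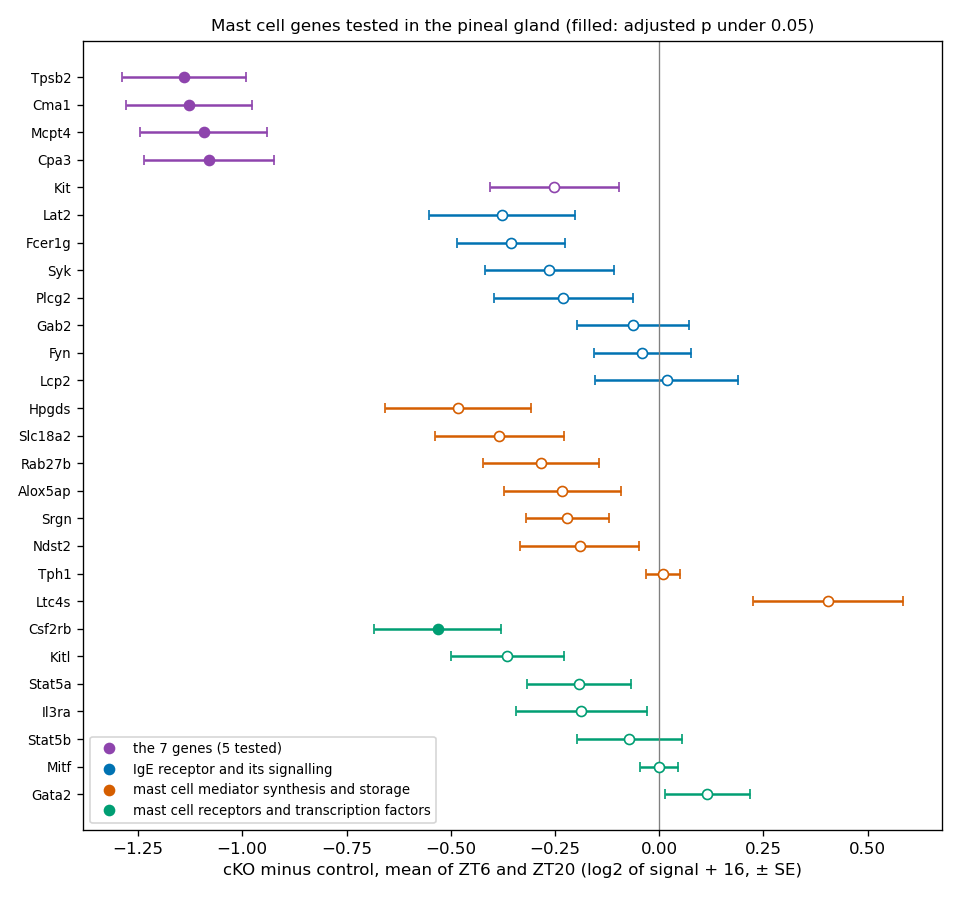
Difference of cKO minus control in log2(signal + 16), averaged over ZT6 and ZT20, with SE bars, for the tested mast cell genes, coloured by list. Filled points passed an adjusted p of 0.05; the 4 proteases stand farthest left, at -1.14 to -1.08, and Csf2rb is the only other filled point.

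Genes of other cell types moved alongside the proteases in the same comparison. Their lists were chosen with earlier results of these data known, so the counts below are a description. Over both times, limma called lower 7 of 7 tested bone and osteoclast genes, 5 of 6 neutrophil and marrow genes, 6 of 8 macrophage genes and 4 of 8 fibroblast genes of the meninges, where 2.84% of all genes were called lower. It called higher 5 of 6 choroid plexus genes, where 0.327% of all genes were called higher. At ZT6 the choroid plexus list had 5 genes called higher and a median difference of 0.91, and at ZT20 it had 0 and a median of 0.08. Of 8 endothelial and mural cell genes, 1 was called lower over both times, 0 at ZT6 and 4 at ZT20. Of 5 pinealocyte genes, 5 retina and rod genes and 2 melanocyte genes 0 passed over both times. The summed signal of the bone list was 6961.1 to 8413.6 in cKO pools and 9719.4 to 11860.2 in control pools at ZT6, and 6129.3 to 8229.6 in cKO pools and 7834.1 to 11614.4 in control pools at ZT20. That of the neutrophil list was 2733.1 to 3200.3 in cKO pools and 6421.7 to 12311.1 in control pools at ZT6, and 3185.5 to 8243.1 in cKO pools and 1900.0 to 7029.0 in control pools at ZT20, where it overlapped and 0 of its genes passed. That of the 5 pinealocyte genes was 35227.9 to 36992.1 in cKO pools and 34324.4 to 36244.0 in control pools at ZT6. Summed over the 7 mast cell genes, the signal was 1045.6 to 1400.9 in cKO pools and 2130.6 to 2519.1 in control pools at ZT6, and 895.0 to 1654.4 in cKO pools and 1891.4 to 3480.2 in control pools at ZT20. No gene of these lists was at 0 in any group. The part of tissue around the gland in the protease result was not tested.

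The genes whose log2 values were most like the mean of the 4 proteases over the 12 pineal arrays, among 11065 genes, were Ccdc82 (r = 0.984), F13a1 (r = 0.971), Cyp4b1 (r = 0.970), Dapk2 (r = 0.963), Mrc1 (r = 0.946), Olfml2b (r = 0.944), Rab5b (r = 0.942) and Serpinb1a (r = 0.940). F13a1 encodes the A chain of coagulation factor XIII and Mrc1 the mannose receptor, both known from tissue macrophages, and Serpinb1a an inhibitor of neutrophil serine proteases. F13a1 averaged 874.0 in cKO and 1484.1 in control glands over both times, and Mrc1 1858 in cKO and 2589 in control glands. All 8 were called lower in cKO by limma over both times, and the genotype difference is part of these correlations. Over deviations from the group means the closest were Htra4 (r = 0.986), Zfp354b (r = 0.983), Fmo2 (r = 0.977), Cryl1 (r = 0.976), Olfml2b (r = 0.974), Top1mt (r = 0.974), Tle1 (r = 0.973) and Pacrgl (r = 0.972), of which only Olfml2b was called lower. Among the other mast cell genes, the correlation with the protease mean over all 12 values was 0.828 for Ms4a2, 0.725 for Tpsab1 and 0.58 for Kit, and 0.527, 0.355 and 0.631 over deviations.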

How the data were processed

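The deposited values are array intensities on a linear scale. Per the submitters' processing notes the software was GCOS; its version, scaling and detection calls are not given in the sources used here. RNA was amplified with the NuGEN Ovation system, per the labels' protocols. Gene symbols came from the platform's annotation, and a gene was read by its probe set of highest mean over 24 arrays, avoiding _x_at sets. Groups were taken from the sample labels.

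Intensities were converted to log2(signal + 16), not normalised further, and modelled in limma 3.58.1 under R 4.3.3, using lmFit and then eBayes with a variance trend and 1 mean per group, for genes above the array median on at least 3 arrays of the fit. P-values are two-sided, adjusted by Benjamini-Hochberg over all genes tested, with a threshold of 0.05. The pineal fit had 154.37 prior degrees of freedom, so its p-values rest largely on the spread pooled across genes; the 95% intervals use the same fit. The labels do not state that equal replicate numbers pair pools. Deviations from the group means correlated at 0.186, 0.349 and 0.322 for the same-numbered ZT6 pools of cKO and control, so the numbers may pair these, from the data alone. At ZT20 the values were 0.197, 0.118 and 0.069. The main fit did not pair pools, and the replicate number entered only as a block in an alternative fit. The scripts were tested on simulated data. Genes outside the 7 were named by rule: called genes of each list or the brightest, and the 8 most correlated. Of those the rule allowed, not all are printed. The members and lists were chosen with earlier results of these data known. Promoters came from RefSeq for 5 of the 7 genes; Tpsb2 and Tpsab1 are not shown. Other scalings, added amounts, filters, probe set rules, a replicate block and left-out pools were tried. The number of arrays limits the precision.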

Additional observations from a re-analysis of the deposited data

Results flagged for a closer look

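A comparison added after the data were seen set the cKO effect in retina against that in pineal gland for the 5 genes of the fit over both tissues. Of these only Kit was also tested in the retina alone. The 4 proteases entered through the pineal arrays and lay below the array median on every retina array, so their difference between tissues largely restates the pineal difference. The effect in retina minus that in pineal gland on the log2 scale was 1.45 for Tpsb2, 1.17 for Cpa3, 1.15 for Mcpt4, 1.08 for Cma1 and 0.91 for Kit. The differences of the 4 proteases are given as a description. The limma adjusted p-value for Kit was 3.65e-03, where 20.5% of all genes were called higher and the median of all genes was 0.27. Kit was called in 11 of 13 alternatives, and its limma adjusted p reached 0.0709, after median centring. In array units, Kit was higher in 6 of 6 cKO retina pools than in any control pool, and ranked within each array it overlapped. No fit left out both cKO retina pools that kept Neurod1 signal.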

How the results depend on the processing

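Averaged over both times, 4 of the 5 genes tested were called lower under every alternative run and in each of the 12 fits that left out 1 pool, and with no filter on low values Tpsab1 was called too. At ZT6 the count was 4, and it was 0 with no filter, 2 with no variance trend, 3 with the mean of a gene's probe sets (Tpsb2 lost, adjusted p = 0.0679) and 0 when both pools numbered 3, of high Gnat1, were dropped. At ZT20 it was 0 after quantile normalisation, centring on array medians, no filter, no variance trend or averaging a gene's probe sets, 1 after trimmed-mean scaling, and 1 to 4 when 1 pool was left out. Of all genes, 88 were called higher and 143 lower at ZT6, and 4014 higher and 152 lower after centring on medians; over both times 39 were higher and 339 lower, and 5014 and 170 after centring. At ZT20 1 was higher and 121 lower, and 0 and 0 after quantile normalisation or centring, with 961 and 2691 genes at an unadjusted p under 0.05. Same-numbered pools correlated at r = -0.222 to 0.349 in 18 pairs, 10 of them over 0.1, and 12 of the 18 matched best on their own number. With the replicate block the count was 4 at each time and over both, it changed no call of the 7 genes, and 124 genes were called higher and 169 lower at ZT6. Values that did not pass changed sign as follows, on the log2 scale. Kit at ZT6 was 0.0269 after quantile normalisation, 0.11 after median centring and 0.0287 without the high-Gnat1 pools, and over both times 0.0128 after median centring. The genotype-by-time difference was 0.0128 for Cma1 after trimmed-mean scaling, -0.103 and -0.0615 for Cpa3 without the residual-Neurod1 and without the high-Gnat1 pools, and 0.0733, 0.0103 and 0.0863 for Mcpt4 after quantile, median and trimmed-mean scaling. ZT20 minus ZT6 in cKO was 0.0649, 0.0318 and 0.0684 for Mcpt4 after those scalings; without the residual-Neurod1 pools it was -0.49 for Cma1, -0.0298 for Cpa3 and -0.22 for Tpsb2, and without the high-Gnat1 pools -0.10, -0.0417 and -0.0295. In controls it was -0.0084 and -0.0178 for Mcpt4 after quantile and trimmed-mean scaling, and 0.0645 for Kit without the high-Gnat1 pools. With 1 pool left out, Kit at ZT6 ran from -0.31 to 0.0462. The genotype-by-time difference ran from -0.43 to 0.15 for Cma1, -0.16 to 0.28 for Cpa3 and -0.39 to 0.23 for Mcpt4. ZT20 minus ZT6 in cKO ran from -0.24 to 0.32 for Cma1, -0.0481 to 0.31 for Cpa3, -0.37 to 0.17 for Mcpt4 and -0.10 to 0.25 for Tpsb2, and in controls from -0.10 to 0.44 for Cma1, -0.16 to 0.28 for Cpa3, -0.28 to 0.20 for Mcpt4 and -0.29 to 0.0645 for Kit. Averaging a gene's probe sets left none of the 7 genes tested in the retina. The cause of these changes was not tested.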
